A study of Homo sapiens with 10 samples.

Results

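AUTS2 is a gene of 1195032 bp on chromosome 7 (GRCh38, 69598475 to 70793506, forward strand, RefSeq gene 26053) in which peaks of the histone mark H4R3me2s were counted, from 2 kb before the gene to 2 kb after it. The gene was chosen because merged BDNF+Dox reads called over merged BDNF reads gave many peaks in it for its length, so those pooled counts are a description and were not tested. Of 131026 peaks in the 13 deposited lists, 117 lay in this window: 26 in the 9 single libraries, 30 in the 2 pooled narrow lists and 61 in the 2 pooled broad lists. The mark, histone H4 dimethylated symmetrically at arginine 3, was measured by ChIP-seq in SH-SY5Y, a human neuroblastoma line. BDNF+Dox cells (n = 3 libraries) received 10 µM retinoic acid in 3% serum for 6 days, 50 ng/ml of the neurotrophin BDNF without serum for 4 days, and 1 µg/ml doxycycline for 3 days to induce a Tet-on construct for α-synuclein. BDNF cells (n = 3) received the retinoic acid and BDNF but no doxycycline, and Naive cells (n = 3) received none of these agents. All groups came from the same line, grown in 10% serum with 300 µg/ml zeocin, and all 9 libraries were called against 1 Input library without antibody. Drug and induced protein cannot be told apart here, since no group with doxycycline but without the construct was analysed. The labels do not say whether replicates were separate cultures, so p-values measure only how far these samples spread, and that spread may be technical.

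AUTS2 encodes a nuclear and cytoplasmic protein of the developing nervous system, and disruption of the gene is known to cause a neurodevelopmental syndrome. In the nucleus the protein joins a variant Polycomb repressive complex 1 through PCGF3 or PCGF5, and together with casein kinase 2 and the acetyltransferase EP300 it can activate transcription in neurons. In the cytoplasm it acts on Rac signalling and the actin cytoskeleton, which bears on neurite growth. H4R3me2s is written mainly by PRMT5 with its partner WDR77 and is usually described as a repressive mark.

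The 250 bases before the annotated start of AUTS2 (RefSeq, GRCh38.p14, chr7:69598225-69598474, forward strand) are shown to describe the start of the gene. Capitals mark every match to GGGCGG or its reverse complement CCGCCC, some of which overlap.
AUTS2 promoter: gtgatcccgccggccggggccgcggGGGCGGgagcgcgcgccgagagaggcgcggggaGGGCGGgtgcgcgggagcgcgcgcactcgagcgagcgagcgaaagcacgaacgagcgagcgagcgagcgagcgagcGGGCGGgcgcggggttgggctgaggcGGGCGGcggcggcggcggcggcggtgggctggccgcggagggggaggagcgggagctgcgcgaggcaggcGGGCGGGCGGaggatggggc
The stretch had 82.8% G and C, more than 98.4% of 22156 promoters of protein-coding genes cut to the same length, whose median was 62%. It held 49 CG dinucleotides, against a median of 16 in those promoters. It held 6 matches to the motif on either strand, and 53.7% of the promoters held at least 1. Within 2 kb of the start, 0 peaks were called in each of the 13 lists. The gene held a mean of 2.41 library peaks per Mb and 9.17 to 25.9 pooled peaks per Mb. At such densities a stretch this short seldom holds a peak, so the absence says little about this promoter. The share of other gene starts without a peak was not counted. Within the gene, the library peak nearest the start began 94.5 kb after it, in Naive replicate 1. The nearest narrow pooled peak there began 82.6 kb after the start, in the list over BDNF. On the other side, the nearest library peak ended 13.2 kb before the counted window, in BDNF replicate 2. The nearest narrow pooled peak on that side ended 74.4 kb before the window, also in the list over BDNF. A broad pooled peak over Naive began 16.4 kb after the start.

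The 3 groups carried overlapping numbers of AUTS2 peaks over Input. BDNF+Dox replicates 1, 2 and 3 had 3, 2 and 4 peaks, BDNF replicates 2, 3 and 5, and Naive replicates 5, 0 and 2. The groups overlapped in each comparison, and Naive replicate 2 was the only library without a peak. The mean was 3 ± 1 AUTS2 peaks (SD, n = 3) in BDNF+Dox, against 3.33 ± 1.53 in BDNF and 2.33 ± 2.52 in Naive. A peak in the gene was present in 8 of 9 libraries. Peaks in 8 or more libraries were found in 1.31% of all protein-coding genes, but in 54.8% of the 314 such genes of 500 kb or more. The libraries kept between 17164402 and 18928589 reads after duplicates were removed, and their lists held 4536 to 12207 peaks.

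**Figure D1:**
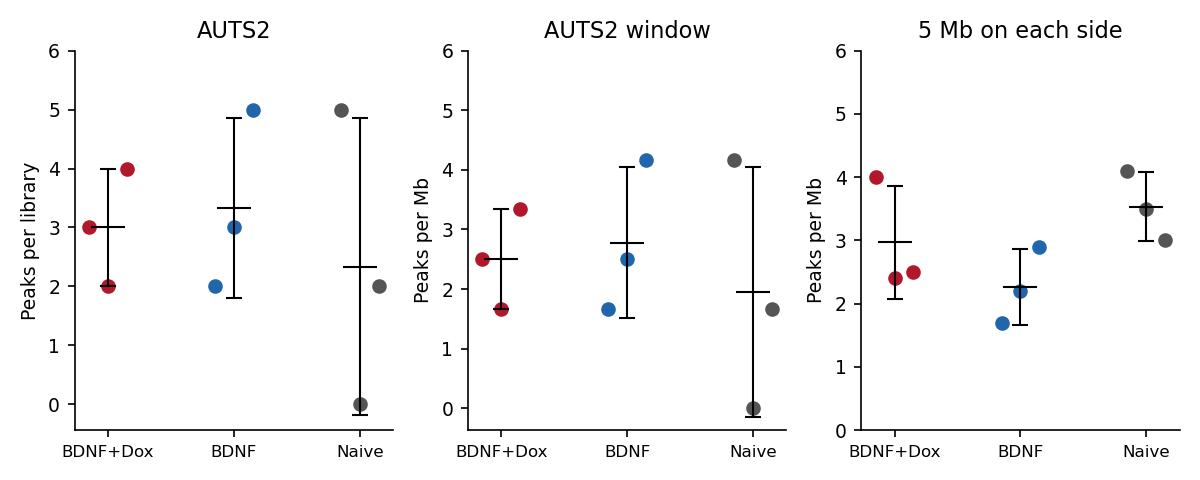
AUTS2 peaks per library (left), AUTS2 peaks per Mb (middle) and peaks per Mb in the 5 Mb on each side (right) for BDNF+Dox, BDNF and Naive. Points are the 3 libraries of a group, the horizontal bar is the mean and the error bar the SD; counts in the gene run from 0 to 5 and overlap between all groups.

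Differentiation alone, BDNF against Naive, was the one contrast that the pooled lists do not hold, and it was tested on 3 measures. It is not independent of the choice of the gene, since merged BDNF reads were the control of the list that chose it. Merged Naive reads were the control of the other pooled comparison. The p-values below do not account for that choice. The difference in peak number was 1 peak per library (exact two-sided permutation p = 0.8, adjusted over the 3 measures 0.8). Groups of 3 libraries cannot give a p below 0.1. Per 1000 peaks of the library, AUTS2 held 0.324, 0.661 and 0.726 peaks in the BDNF replicates, against 0.41, 0 and 0.253 in the Naive replicates. This share averaged 0.57 ± 0.216 (SD, n = 3) in BDNF and 0.221 ± 0.207 in Naive, and the groups overlapped (exact two-sided permutation p = 0.2, adjusted 0.3).

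With 0.5 peaks added to both counts, the density in the gene relative to the 5 Mb on each side did not overlap between BDNF and Naive. It was the only one of these measures without overlap, and this rests on the added 0.5, since the plain ratios overlapped. Those were 0.981, 1.14 and 1.44 in the BDNF replicates and 1.02, 0 and 0.556 in the Naive replicates. On the log2 scale, with 0.5 peaks added to both counts, this ratio was 0.25, 0.37 and 0.64 in the BDNF replicates and 0.14, -3.09 and -0.55 in the Naive replicates. It averaged 0.42 ± 0.20 (SD, n = 3) in BDNF and -1.17 ± 1.70 in Naive, a difference of 1.59. The exact two-sided permutation p was 0.1, the smallest this design allows, and 0.3 after adjustment, so the difference did not pass. Among the 314 long genes, 8.28% also had BDNF and Naive libraries that did not overlap on this ratio. Without Naive replicate 2, the library with no AUTS2 peak, the difference was 0.62. With peaks of −log10 p of 3 or more it was 0.86 (exact permutation p = 0.6), and with equal peak numbers per library 1.03 (exact permutation p = 0.4), and in both the groups overlapped. The flanks themselves held fewer peaks in BDNF than in Naive, at 2.27 ± 0.603 and 3.53 ± 0.551 peaks per Mb (SD, n = 3), and how far that enters the ratio was not tested.

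α-Synuclein induction was described without a test, because the gene was chosen from this contrast. BDNF+Dox libraries averaged 0.333 fewer AUTS2 peaks than BDNF libraries and 0.667 more than Naive libraries. Each of these differences was below the SD within the groups. Leaving out single libraries, they ran from -1 to 0.5 against BDNF, above 0 without BDNF+Dox replicate 2 or BDNF replicate 3, and from -0.5 to 2 against Naive, below 0 without Naive replicate 2. With peaks of −log10 p of 3 or more the difference from BDNF was 0.333, and with 5 or more that from Naive was -0.667. Over all protein-coding genes with library peaks, BDNF+Dox and BDNF did not overlap in 2.18% of genes and BDNF+Dox and Naive in 1.62%, and AUTS2 was not among them in either case.

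Peaks over Input rarely fell at the same place in different libraries. The 26 library peaks made 25 separate regions, 24 of which held a peak of 1 library. The shared region, 70128202 to 70128455, lay 530 kb from the start of the gene and had a peak in BDNF+Dox replicate 1 and in BDNF replicate 3. Its fold over Input was 2.98 in the first library and 3.26 in the second, with q = 1 in each. No region had peaks in 3 or more libraries. Genome-wide, 2.37% of 65632 library regions held peaks of 2 or more libraries. In AUTS2, 8 regions held peaks of BDNF+Dox libraries only, 9 of BDNF libraries only and 7 of Naive libraries only.

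Each library peak in AUTS2 rested on few reads. Heights in the deposited files are scaled to the smaller dataset, and divided by that scale all 26 came out within 0.02 of a whole number. They were stacks of 6 to 12 reads with a median of 8, against a median of 7 over all 67753 library peaks. The folds over Input ran from 2.54 to 4.55, with a median of 3.15 against 3.47 over all library peaks. None of the 26 had q of 0.05 or less, as 0.397% of all library peaks did, and 22 had q = 1. By −log10 p the strongest was in Naive replicate 1, at 69692941 to 69693115, with 9 stacked reads, a fold of 4.55 and q = 0.244. In the BDNF libraries the strongest was at 70033120 to 70033362 in replicate 2, with 9 stacked reads and a fold of 4.33. In the BDNF+Dox libraries it was at 69946984 to 69947158 in replicate 1, with 10 stacked reads and a fold of 3.64.

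Library peaks of BDNF+Dox lay mostly in the distal part of the gene and those of BDNF and Naive mostly in the proximal part, a split chosen after the positions were seen and not tested. Beyond the midpoint of AUTS2 lay 7 of 9 BDNF+Dox peaks, 2 of 10 BDNF peaks and 2 of 7 Naive peaks. By library these were 1 of 3, 2 of 2 and 4 of 4 in the BDNF+Dox replicates. The BDNF replicates had 1 of 2, 0 of 3 and 1 of 5 there. Naive replicates 1 and 3 had 2 of 5 and 0 of 2. The groups overlapped, since BDNF+Dox replicate 1 had 33.3% of its peaks beyond the midpoint, below the 50% of BDNF replicate 1 and the 40% of Naive replicate 1. The median BDNF+Dox peak lay 60.0% of the gene length from the start, against 35.6% for BDNF peaks and 26.5% for Naive peaks.

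**Figure D2:**
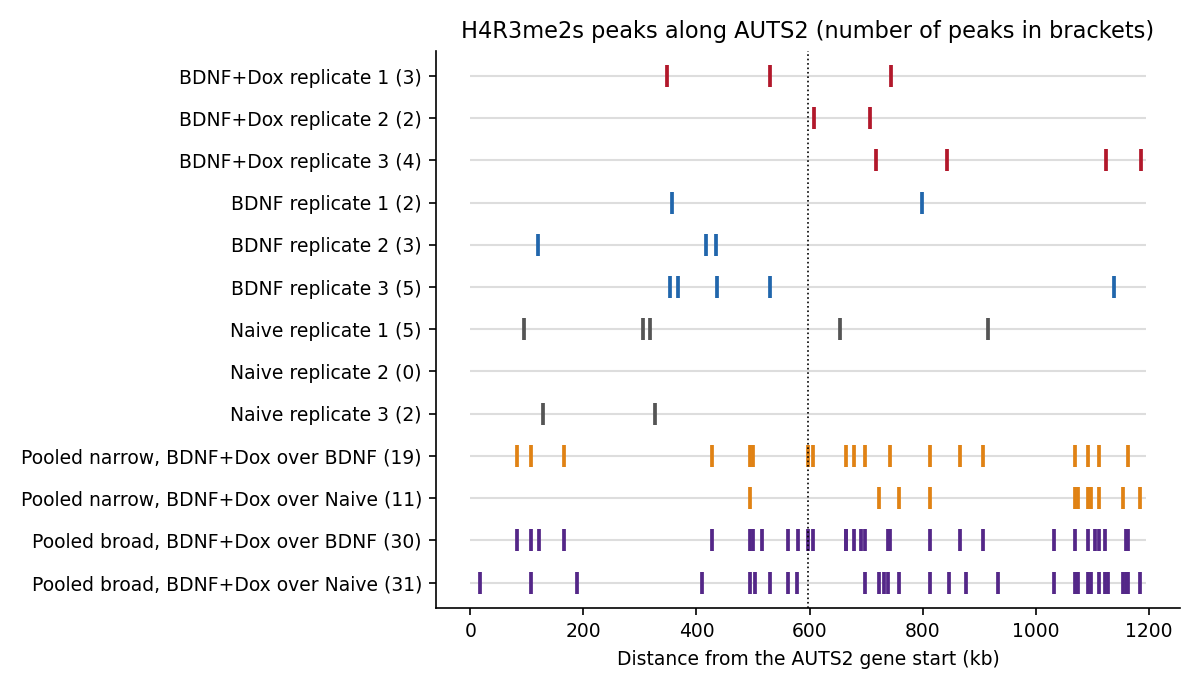
Positions of H4R3me2s peaks along AUTS2 in the 9 libraries and the 4 pooled lists, in kb from the gene start, with 1 tick per peak (its summit, or its centre in broad lists) and the midpoint of the gene as a dotted line. Beyond the midpoint lie 7 of 9 BDNF+Dox library peaks, 2 of 10 BDNF and 2 of 7 Naive library peaks, and 10 of 11 pooled narrow peaks over Naive.

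The library peaks were spread over much of the gene with a few close pairs. In 10 equal bins from the start they numbered 2, 1, 6, 4, 2, 4, 2, 2, 0 and 3. Between neighbouring summits of all libraries the median distance was 24.6 kb, with quartiles of 10.2 and 53.0 kb. The longest stretch without a library peak was 209 kb, from 916 to 1125 kb after the start. Neighbours closer than 10 kb formed 4 runs holding 9 of the 26 peaks, and the longest run held 3. In the longest run BDNF+Dox replicate 1, BDNF replicate 3 and BDNF replicate 1 had summits 348.6, 353.8 and 356.7 kb from the start. These 3 peaks did not overlap each other.

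The merged BDNF+Dox reads gave 19 narrow peaks in AUTS2 over merged BDNF reads, the count that led to the choice of the gene. Folds, p-values and q-values of pooled peaks are the authors' own. In the authors' deposited table the 19 folds ran from 2.07 to 3.28, with a median of 2.66 against 2.77 over all 9877 peaks of that list. At q of 0.05 or less there were 0 of 19 in the authors' deposited table, where 0.952% of the list had such a q, and 14 of 19 had q = 1. The strongest lay at 70667657 to 70667941, 1069 kb from the start, where the authors' deposited table gives q = 0.438 and a fold of 3.28. It was the only one of the 19 with −log10 p of 5 or more in the authors' deposited table, which 12% of the list reached. The next by q in the authors' deposited table began at 70710416 (fold 3.09, q = 0.716), 70195812 (fold 3.05, q = 0.827), 70464905 (fold 2.94, q = 0.889) and 70412212 (fold 2.90, q = 0.977). Across the genome, 14.7% of 19974 protein-coding genes held at least 1 peak of this list.

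Over merged Naive reads the same merged BDNF+Dox reads gave 11 narrow peaks in AUTS2, and 1 of them had q of 0.05 or less. That peak, at 70752609 to 70752785 and 1154 kb from the start, stood in the authors' deposited table with q = 0.0034, −log10 p of 7.84 and a fold of 4.33. In that list 1.2% of 7919 peaks had q of 0.05 or less in the authors' deposited table. At −log10 p of 5 or more there were 2 of 11 in the authors' deposited table, as for 12.1% of the list. The remaining 10 had q from 0.25 to 1 and folds from 1.96 to 3.48 in the authors' deposited table. By q, the next was at 70667679 to 70667941 (fold 3.48, q = 0.25), followed by 70412222 to 70412484 (fold 3.41, q = 0.564), in the authors' deposited table. The other 8 had q = 1. A further peak, at 70696306 to 70696468, lay in the noncoding RNA gene LOC107986709 inside AUTS2. It was the only AUTS2 peak among all library and pooled narrow peaks to overlap another annotated gene. Peaks of this list lay in 13.1% of protein-coding genes.

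Both comparisons use the same BDNF+Dox reads, so a place listed in both is 1 measurement set against 2 controls. Near 1069 kb from the start the authors' deposited table had a fold of 3.28 over BDNF and 3.48 over Naive. At 814 kb the folds in the authors' deposited table were 2.90 over BDNF and 3.41 over Naive. At 496, 1092 and 1112 kb they were 2.21, 2.70 and 3.09 over BDNF in the authors' deposited table, and 2.61, 2.74 and 1.96 over Naive. The peak at 1154 kb, with the smallest q over Naive, was not in the narrow list over BDNF.

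Stacks of merged BDNF+Dox reads under these pooled peaks ranged from 11 to 18 reads, where the stacks of single libraries ranged from 6 to 12. Divided by the scale, the 19 heights over BDNF were 11 to 16 reads with a median of 14, and the 11 over Naive were 11 to 18 with a median of 14. All 30 were within 0.02 of a whole number. The implied background was computed with 1 read added to both sides of the fold, the rule taken for MACS2. It was 3.59 to 6.00 reads for merged BDNF and 3.23 to 7 reads for merged Naive. Such a background draws on windows of 1000 and 10000 bp, so it need not equal the control reads at the peak itself. The peak at 1154 kb had 18 stacked BDNF+Dox reads against an implied 3.29 reads of merged Naive background. That at 1069 kb had 16 stacked reads against 4.00 over BDNF, and 16 against 3.78 over Naive.

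**Figure D3:**
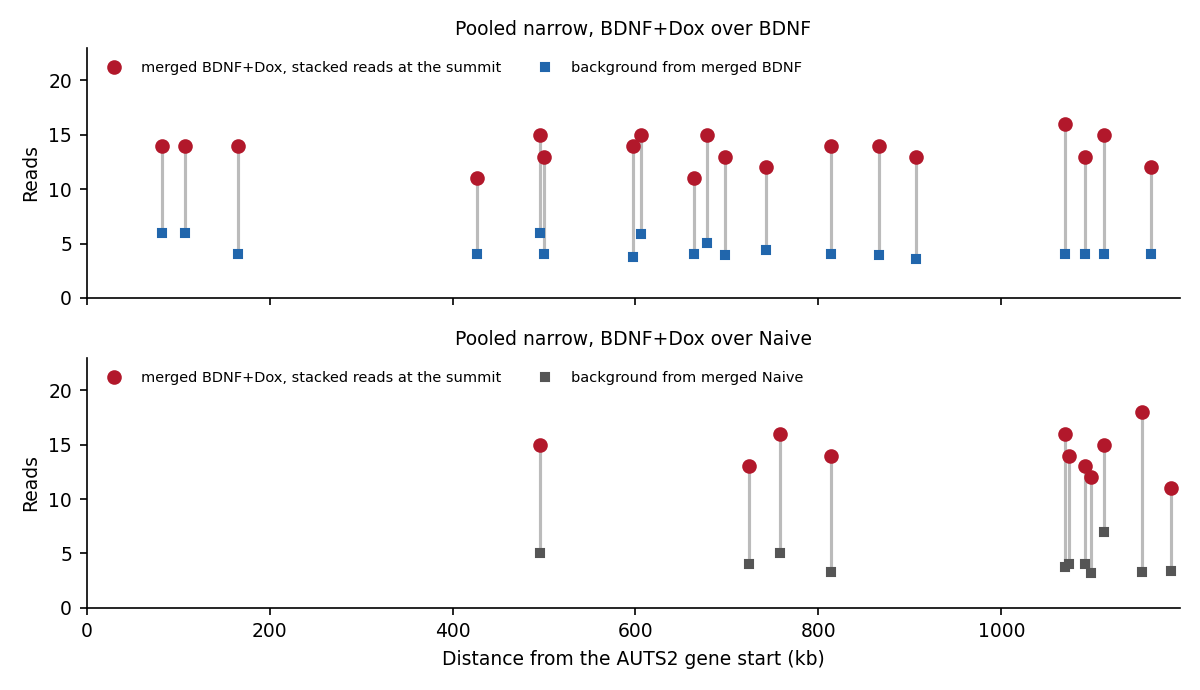
Stacked reads of merged BDNF+Dox at each pooled narrow peak in AUTS2 (red circles) and the background that the fold implies for the merged control (squares), in reads, against distance from the gene start in kb, over BDNF (top) and over Naive (bottom). Stacks run from 11 to 18 reads. Backgrounds run from 3.23 to 7 reads and need not equal the control reads at the peak itself.

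Single libraries carried few of the pooled peaks. None of the 19 over BDNF met a library peak of BDNF+Dox, BDNF or Naive, where 17.9% of the whole list overlapped a BDNF+Dox library peak. For BDNF and Naive library peaks that share was only 0.0102% and 0.893%, so their absence says little about AUTS2. Merged BDNF reads were the control of this list. Of the 11 over Naive, 1 overlapped a BDNF+Dox library peak, against 18.3% of the whole list. That peak lay at 70783632 to 70783924 and met the peak of BDNF+Dox replicate 3 at 70783694 to 70783979, close to the end of the gene. The authors' deposited table gives it q = 1 and a fold of 2.69. The peak with q = 0.0034 in the authors' deposited table overlapped a peak of 0 libraries. From a pooled peak to the nearest BDNF+Dox library peak in the gene the median distance was 30.1 kb over BDNF and 29.2 kb over Naive. The closest miss was at 70341208 to 70341383 over BDNF, 1.13 kb from a peak of BDNF+Dox replicate 1.

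Pooled peaks, like the BDNF+Dox library peaks whose reads they share, lay mostly beyond the midpoint, with 13 of 19 over BDNF and 10 of 11 over Naive. Over Naive, 5 of 11 were in the last of the 10 bins and 0 in the first 4. Over BDNF, the bins held 2, 1, 0, 1, 2, 5, 2, 2, 1 and 3 peaks. The median distance between neighbouring summits was 48.2 kb over BDNF and 32.6 kb over Naive. In each list 2 pairs were closer than 10 kb. The longest empty stretch over BDNF was 262 kb, between 165 and 427 kb from the start, and over Naive 255 kb, between 814 and 1069 kb.

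Broad calls, which join enriched stretches, numbered 30 over BDNF and 31 over Naive. All 19 narrow peaks over BDNF and all 11 over Naive overlapped broad peaks of the same comparison by at least 1 bp, and the narrow peaks met 19 of the 30 and 11 of the 31 broad calls. In the authors' deposited table the broad folds ran from 2.00 to 2.69 over BDNF and from 2.00 to 3.31 over Naive. At q of 0.05 or less there were 0 of 30 and 0 of 31 in the authors' deposited table, where 0.0475% of the list over BDNF and 0.0544% of that over Naive had such a q. Also 0 of 30 and 0 of 31 reached −log10 p of 5 in the authors' deposited table, as 0.123% of the list over BDNF and 0.129% of that over Naive did. The median broad length was 328 bp over BDNF and 303 bp over Naive. The broad peak over Naive at 70128104 to 70128428 overlapped the region shared by BDNF+Dox replicate 1 and BDNF replicate 3. Broad peaks lay in 25.5% of protein-coding genes over BDNF and in 23.7% over Naive.

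Relative to the 5 Mb on each side, AUTS2 was denser in pooled peaks but not in the mean over the 9 libraries. Over the 9 libraries the gene held 2.41 ± 1.35 peaks per Mb (SD, n = 9), against 2.92 ± 0.819 in the 5 Mb on each side. The pooled narrow list over BDNF held 15.8 peaks per Mb in the gene, 8.80 in the 5 Mb before it and 4.6 in the 5 Mb after it. Over Naive these densities were 9.17, 8.20 and 3.6 peaks per Mb. For the broad lists they were 25, 17.8 and 9.20 over BDNF and 25.9, 18.6 and 7 over Naive. The Mb just before the gene was close to it, with 14 pooled narrow peaks over BDNF and 8 over Naive. The first Mb of the gene held 15 and 4. With 1 Mb on each side, the ratio of gene to flank was 1.76 over BDNF and 1.53 over Naive. With 5 Mb it was 2.36 and 1.55. These ratios involve the values that chose the gene and were not tested. Chromosome 7 as a whole held 7.15 to 10.3% of the peaks of a library. It held 9.94% of the pooled narrow peaks over BDNF and 9.43% of those over Naive.

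**Figure D4:**
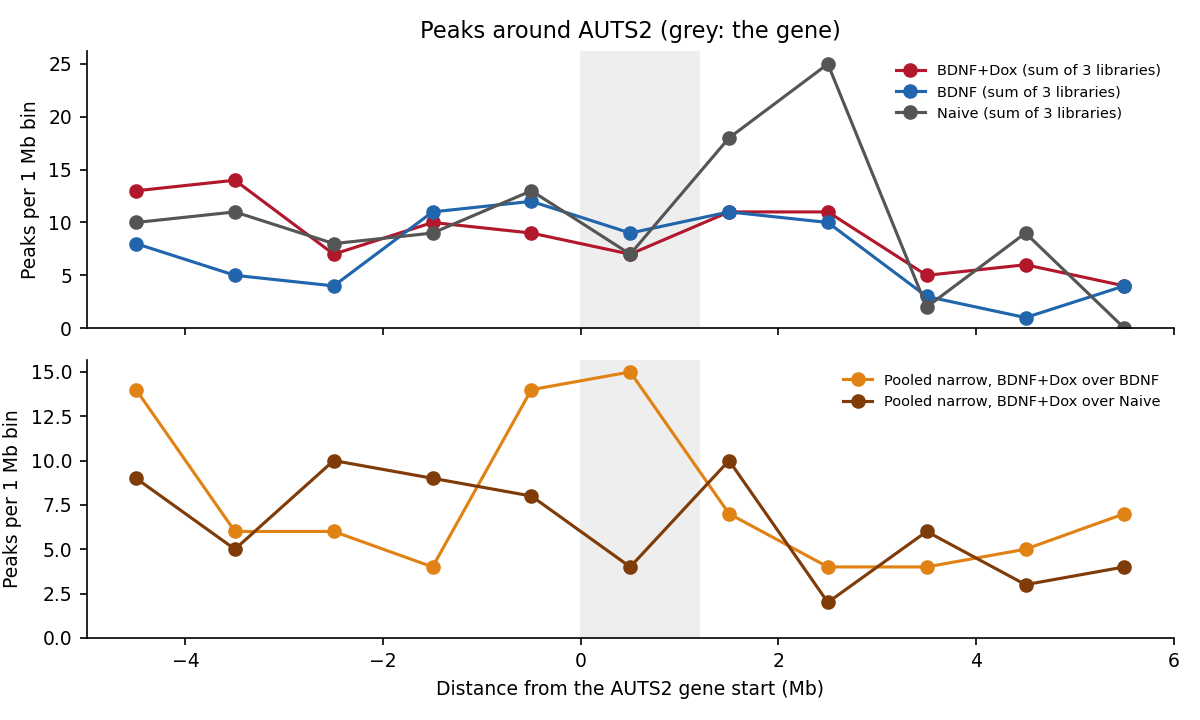
Peaks per bin of 1 Mb from 5 Mb before the AUTS2 start to 6 Mb after it, with the gene in grey, for the libraries summed by group (top) and the pooled narrow lists (bottom). The first Mb of the gene holds 15 pooled peaks over BDNF and 4 over Naive, and 7, 9 and 7 library peaks in BDNF+Dox, BDNF and Naive. The Mb before the gene holds 14 pooled peaks over BDNF and 8 over Naive.

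Before AUTS2 lies a stretch of 2.31 Mb without a protein-coding gene, which was not poor in peaks. It held 3.47 peaks per Mb and library on average, 8.68 pooled narrow peaks per Mb over BDNF and 7.37 over Naive. The 67 protein-coding genes within 5 Mb included 22 with a pooled narrow peak or with peaks in 3 or more libraries. Those with the most narrow peaks were CALN1, GALNT17, TPST1, TYW1B, TYW1 and ZNF138. CALN1, a calcium-binding protein gene of neurons 986 kb after AUTS2, had 4, 2 and 5 peaks in the BDNF+Dox replicates, 2, 3 and 3 in the BDNF replicates and 12, 5 and 5 in the Naive replicates. BDNF and Naive did not overlap there, as in 1.66% of protein-coding genes with library peaks, and CALN1 is part of the flank in the density ratio above. It held 3 pooled narrow peaks over BDNF and 1 over Naive.

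GALNT17, a glycosyltransferase gene 339 kb after AUTS2, had 2, 1 and 2 library peaks in BDNF+Dox, 0, 1 and 5 in BDNF and 2, 6 and 3 in Naive, with 4 pooled narrow peaks over BDNF and 1 over Naive. TPST1, a protein tyrosine sulfotransferase gene before AUTS2, had 9 library peaks in all and 2 pooled narrow peaks over BDNF and 0 over Naive. TYW1 and TYW1B are near-identical copies whose reads may be split between them, and their counts are uncertain. TYW1 had 6 library peaks, 1 pooled narrow peak over BDNF and 3 over Naive, and TYW1B had 4 library peaks, 2 over BDNF and 5 over Naive. ZNF138, a zinc finger gene, had 6 library peaks and 2 pooled narrow peaks in each comparison.

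Among the 314 protein-coding genes of 500 kb or more, AUTS2 ranked 198 by mean library peaks per Mb, 3 by pooled narrow peaks per Mb over BDNF and 18 over Naive. The median long gene had 2.90 library peaks per Mb, 3.92 pooled narrow peaks per Mb over BDNF and 2.85 over Naive. Among the 69 genes of 1 Mb or more it ranked 55 in the libraries and 1 in both pooled narrow lists. These ranks use the values that chose the gene. A high pooled density was not particular to AUTS2, and other long genes of chromosome 7 varied widely. Over BDNF, HDAC9 had 17.4 and SDK1 14.4 pooled narrow peaks per Mb, but PTPRN2 2.85 and CADPS2 1.75. Over Naive, RELN had 15.3 and ELMO1 13.3, but LHFPL3 and CADPS2 had 0.

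**Figure D5:**
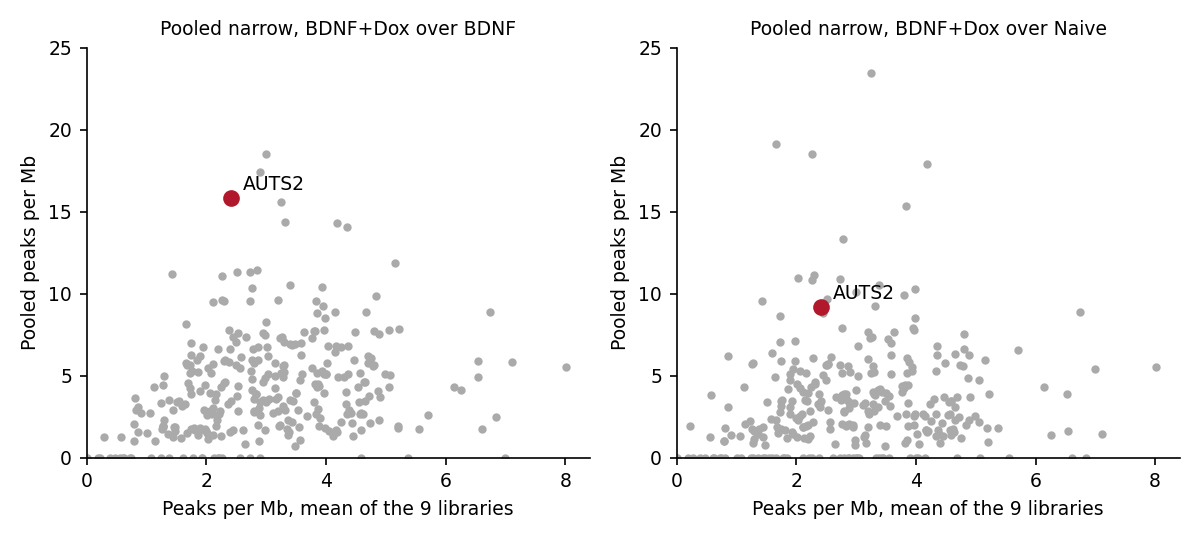
Pooled narrow peaks per Mb over BDNF (left) and over Naive (right) against mean library peaks per Mb for the 314 protein-coding genes of 500 kb or more, 1 point per gene, with AUTS2 in red at 2.41 library peaks per Mb and 15.8 (left) or 9.17 (right) pooled peaks per Mb. The median gene has 3.92 and 2.85 pooled peaks per Mb.

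The long genes whose library profile was most like that of AUTS2 were CCDC178, RBMS3, NELL1, PRKG1 and NPAS3, by the distance between square roots of peaks per Mb over the 9 libraries. Their distances ran from 1.29 for CCDC178 to 1.55 for NPAS3. Like AUTS2, CCDC178, RBMS3 and NELL1 had 8 libraries with a peak and none in Naive replicate 2. The choice by distance favours such a likeness, and 81 of the 314 long genes, AUTS2 included, had 0 peaks in Naive replicate 2. RBMS3, an RNA-binding protein gene, had 9.55 pooled narrow peaks per Mb over BDNF and 10.9 over Naive. NELL1, a secreted growth and differentiation factor gene, had 5.49 over BDNF and 2.2 over Naive. PRKG1, the gene of cGMP-dependent protein kinase, had 4.58 over BDNF and 6.10 over Naive. NPAS3, a neuronal transcription factor gene, had 3.43 in each, and CCDC178 had 3.94 over BDNF and 1.97 over Naive.

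Of 19 genes of the AUTS2 family, its partners and the writers of the mark, 10 had at least 1 library peak (52.6%, against 37.3% of all protein-coding genes). A pooled narrow peak over BDNF was present in 5 (26.3%, against 14.7% of all protein-coding genes). One over Naive was present in 4 (21.1%, against 13.1%). The 19 genes were not matched to the others for length, which bears on whether a gene holds a peak. These differences were not tested and are not a result about the set. The paralogs FBRSL1 and FBRS had 0 peaks in every list. In Polycomb complex 1, PCGF5, a subunit that binds AUTS2, had 4 library peaks, 1 pooled narrow peak over BDNF and 2 over Naive. RNF2, the catalytic ubiquitin ligase, had 4 library peaks, 2 over BDNF and 0 over Naive, whereas PCGF3 and RING1 had 0 in every list. RYBP and YAF2, alternative subunits, had 2 and 3 library peaks and 0 pooled narrow peaks.

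NRF1, a transcription factor gene also on chromosome 7, had the most library peaks of the 19, with 2, 0 and 0 in the BDNF+Dox replicates, 1, 1 and 0 in the BDNF replicates and 2, 0 and 1 in the Naive replicates. It held 3 pooled narrow peaks over BDNF and 2 over Naive. CSNK2A1 had 1 library peak, and CSNK2A2, CSNK2B and EP300 had 0 peaks in every list. Among cytoskeletal partners, DOCK1, a Rac activator, had 4 library peaks, 2 pooled narrow peaks over BDNF and 1 over Naive. ELMO2, which binds DOCK1, had 2 library peaks, 1 pooled narrow peak over BDNF and 1 over Naive. PREX1, another Rac activator, had 3 library peaks and RAC1 had 1, and both had 0 pooled narrow peaks. PRMT5 and WDR77 had 0 peaks in every list. These genes span 3.99 to 547 kb, with a median of 64.3 kb. All are far shorter than AUTS2, and a short gene has less room for a peak.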

How the data were processed

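The submitters' processing notes name cutadapt 1.1 and Trimmomatic 0.32 for trimming, Bowtie for alignment to GRCh38 and MACS2 2.2.7.1 for peaks. The 9 libraries were each set against the Input in narrow mode with a p threshold of 0.01, per the file headers. Merged BDNF+Dox was set over merged BDNF and over merged Naive in narrow and broad mode, with 1 read kept per position, also per the file headers. The deposited peak tables give the length, the pileup signal at the summit, −log10 p-values, −log10 q-values and the fold, a ratio of treatment over local background. Although a header line says that q-values were skipped, the q column is filled and was used as deposited. These calls find only higher signal in the treatment. Depth is the number of reads in the headers, and their number limits the precision, in counting error only.

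Here, peaks overlapping AUTS2 with 2 kb on each side by 1 bp were taken (Python 3.11.15, pandas 2.3.3, RefSeq gene spans of GRCh38.p14, without exons, so exons and introns were not told apart). Only BDNF against Naive was tested, by exact permutation over 20 assignments with Benjamini-Hochberg adjustment over 3 measures. Counting was tested on simulated data. The members and gene lists were chosen with earlier results of these data known. Named were the 6 flank genes with most narrow peaks, the 5 most similar long genes, and the 19 partners. Alternatives changed the peak threshold, peak number per library, flank, overlap, gene class and libraries used. The only sequences used were RefSeq promoters of GRCh38.p14, so peak sequences are not shown.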

Additional observations from a re-analysis of the deposited data

How the results depend on the processing

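Of 89 alternatives, 75 were counted as staying on the same side of the threshold or within the allowed spread, 12 as moved and 2 as reversed. The 75 include changes of sign in the untested differences of BDNF+Dox from BDNF and from Naive, so they overstate stability. The BDNF minus Naive difference in AUTS2 peaks became -0.33 at −log10 p of 5 or more. Leaving out each library, it ran from -0.17 (without Naive replicate 2) to 2.33. At −log10 p of 5 or more, pooled narrow peaks numbered 1 over BDNF and 2 over Naive (12% and 12.1% of the whole lists), and broad peaks 0 and 0. At q of 0.05 or less these were 0 and 1 narrow, and 0 and 0 broad. By construction these stricter thresholds keep fewer peaks. Leaving out single libraries gave 0 to 1 recurrent regions, with 0 without BDNF+Dox replicate 1 or BDNF replicate 3, which share it. Of other genes of 500 kb or more, 0.639% lay above AUTS2 over BDNF and 5.43% over Naive. At 1 Mb or more, where fewer genes enter (69 against 314), these were 0% and 0%. With the replicate number as a block (sign flips, smallest p 0.25), p was 1 for the peak number, 0.5 for the share and 0.25 for the density ratio. Same-numbered libraries deviated together with correlations of -0.0682 to 0.0533 over bins of 1 Mb, and different-numbered ones with -0.0789 to 0.0426. No pairing by number was seen, but counts of sparse, weak peaks cannot exclude it. At 6 to 18 stacked reads per peak, the depth limits every single peak.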
